A study of Homo sapiens with 9 samples.

Results

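BASP1 belongs to a small set of acidic, lipid-anchored proteins with a shared way of working, and 8 genes around it were followed in all 9 libraries of the study. They are the BASP1-like membrane protein genes GAP43, MARCKS and MARCKSL1, the transcription partner genes WT1, PHB2 and HDAC1, and the calmodulin genes CALM2 and CALM3. They were chosen by what their proteins are known to do, with earlier results of these data known. Of these 8 genes, 7 were matched to an identifier among the 63677 of the count files, and 0 identifiers were matched to MARCKS, which was therefore not analysed here.

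As background, GAP43, MARCKS, MARCKSL1 and BASP1 proteins hold on to the inner face of the plasma membrane by fatty acids and a basic stretch that binds acidic phospholipids such as phosphatidylinositol bisphosphate. Calmodulin, the small calcium sensor, binds that basic stretch, and protein kinase C phosphorylates it, both of which release the protein from the membrane, and through these lipids the family acts on the actin cytoskeleton of growing neurites. In the nucleus, BASP1 is known as a partner that turns WT1, a zinc finger transcription factor, from an activator into a repressor, with prohibitin and histone deacetylase in the complex.

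SW480 is a human colon adenocarcinoma line. The SW480 libraries are from the parental cells without a vector. SW480-B is a single-cell clone that carries the human BASP1 coding sequence in pcDNA3 behind a cytomegalovirus promoter and was selected with geneticin. SW480-gRNA-B-all cells carry MS2-P65-HSF1 (hygromycin), then dCas9-VP64 with GFP after single-cell cloning, and then the pooled sgRNAs directed to the promoter of the endogenous BASP1 gene (puromycin). Each BASP1-expressing line thus stands for 1 clone or the offspring of 1 clone, and the agents it carries, the cloning and BASP1 itself cannot be told apart. All samples bear the same treatment and batch labels. Poly(A) RNA was sequenced as stranded libraries, 3 per line, and whether the isolates came from separate cultures is not stated, so that the p-values measure the spread between these samples, which may be technical.

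The deposited counts on genes were 25238831 to 29355669 per library, and a gene without counts is limited at this depth to 3 counts per library, between 0.1002 and 0.116 CPM (the count relative to library size, scaled by edgeR's TMM method), which covers counting error only. BASP1, the gene the lines were made to express, was at 11.9, 8.04 and 0.692 CPM in the SW480 libraries. It was at 268, 269 and 250.5 CPM in SW480-B and at 167, 304 and 300.3 CPM in SW480-gRNA-B-all. In SW480-gRNA-B-all, replicates 2 and 3 stood close together, 1.60% of genes differing more than 2-fold where any other replicate pair had 11.3% to 32.3%. They still differed by more than sampling noise (mean chi-square 3.13 per gene), and the counts of calls in that line, and the calls it carries, are also given with these libraries summed into 1. Of 8 colon epithelium markers, CDX1 was under 1 CPM in every library. The summed level of the 8 was 6336 to 11365 CPM over the 9 libraries, of which KRT8 and KRT18 made up 77.2% to 88.5%, and the other 6 markers together were at 1862 to 2121 CPM in the SW480 libraries, 1208 to 1572 CPM in SW480-B and 896 to 1030 CPM in SW480-gRNA-B-all.

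The promoters of GAP43 and MARCKSL1, the relatives of BASP1 with a level in these libraries, are shown. They are the 300 bases from 250 before to 50 after the annotated start in RefSeq (GRCh38.p14), GAP43 at chr3:115623260-115623559 on the plus strand and MARCKSL1 at chr1:32336184-32336483 on the minus strand. Capitals mark the GA repeat GAGAGA in GAP43 and the GC box GGGCGG in MARCKSL1, each searched on both strands and with overlapping matches counted.
GAP43: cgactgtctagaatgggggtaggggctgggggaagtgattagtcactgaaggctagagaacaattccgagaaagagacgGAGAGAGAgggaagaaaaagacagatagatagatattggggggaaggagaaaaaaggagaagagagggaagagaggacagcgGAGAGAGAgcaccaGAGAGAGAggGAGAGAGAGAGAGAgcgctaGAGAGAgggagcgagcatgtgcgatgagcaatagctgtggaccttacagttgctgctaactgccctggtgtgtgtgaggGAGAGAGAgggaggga
MARCKSL1: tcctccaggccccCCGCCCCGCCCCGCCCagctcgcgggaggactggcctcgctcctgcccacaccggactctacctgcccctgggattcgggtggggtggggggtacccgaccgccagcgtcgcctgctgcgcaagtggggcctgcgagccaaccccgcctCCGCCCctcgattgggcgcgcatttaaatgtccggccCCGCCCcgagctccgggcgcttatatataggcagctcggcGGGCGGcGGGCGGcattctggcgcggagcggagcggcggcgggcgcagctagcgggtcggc
The GAP43 window holds 14 matches of the GA repeat, a motif chosen after the sequence was seen, and 0 matches of the GC box. The MARCKSL1 window holds 7 GC boxes and 0 GA repeats. Over the 35116 promoters of the same length in the table, 22.4% hold the GA repeat and 45.0% hold the GC box. The base composition differs as well, with 52.7% G and C and 7 CpG in GAP43 against 75% and 38 in MARCKSL1, beside medians of 58.7% and 14 over all promoters. Of the other members with a promoter in the table, HDAC1 holds 6 GC boxes, CALM3 holds 2, and PHB2 and WT1 hold 1 each. A match is a description of the letters and was not tested for binding.

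Levels can be compared between genes only per length, and the CPM were divided for this purpose by the length of the canonical transcript in kb. CALM2, a gene for calmodulin, had the highest level of the 7 genes in each line, with a mean of 534 CPM per kb in the parental cells, 523 in SW480-B and 624 in SW480-gRNA-B-all. PHB2, for the prohibitin that works in mitochondria and as a nuclear corepressor, came second with 377, 214 and 229 CPM per kb. CALM3 stood at 125, 84.9 and 110.0 CPM per kb.
At the low end were the transcription factor gene WT1 and the neuronal growth gene GAP43. WT1 had 1.94 CPM per kb in the parental cells, 1.17 in SW480-B and 2.44 in SW480-gRNA-B-all, and GAP43 had 1.57, 2.91 and 0.254 in that order.
In SW480, CALM2 and PHB2, CALM3 and MARCKSL1, MARCKSL1 and HDAC1, and WT1 and GAP43 were neighbours whose libraries overlapped. In SW480-B this held for CALM3 and HDAC1 alone, and in SW480-gRNA-B-all no neighbours in the order overlapped. The lowest places were exchanged, GAP43 lying above WT1 in SW480-B and below it in SW480-gRNA-B-all.

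**Figure D1:**
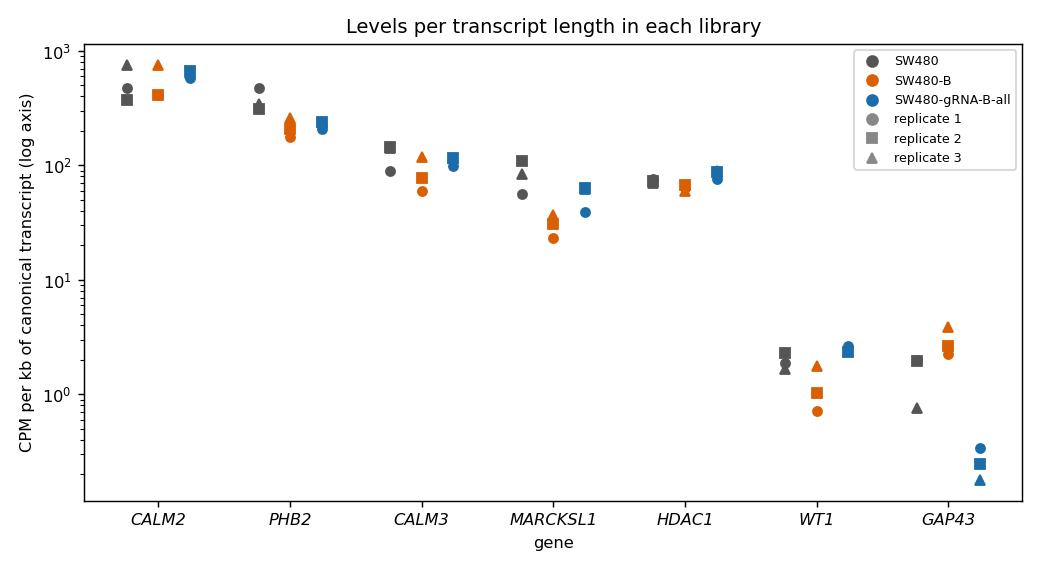
Level of each gene in CPM per kb of its canonical transcript (log axis) in the 9 libraries, coloured by line, with the replicate number as the symbol. CALM2 lies highest and WT1 and GAP43 lowest in every line, and the GAP43 points of SW480-gRNA-B-all (mean 0.254 CPM per kb) lie below all others.

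The lines were compared in pairs, each pair over its own 6 libraries, with edgeR's quasi-likelihood test and Benjamini-Hochberg adjustment over all genes tested, and a gene passed where its adjusted p was under 0.05. All 7 genes with an identifier entered every test. Between SW480-gRNA-B-all and SW480, 1 of 7 passed (GAP43, lower), where 7.80% of all 16100 genes tested passed, 2.29% being higher and 5.52% lower. In SW480-B against SW480, 0 of 7 passed by edgeR, where 1.34% of all genes passed, 1.25% being lower. At an unadjusted p under 0.05 there were 2 of 7 (MARCKSL1 and PHB2, both lower), against 15.8% of all genes. DESeq2, which called more genes (1133 of 20101), called 1 of 7 (MARCKSL1). Between SW480-gRNA-B-all and SW480-B, 1 of 7 passed (GAP43, lower), where 8.76% of all genes passed, 3.03% being higher and 5.73% lower.
Libraries of the 2 lines did not overlap for 3 of 7, 4 of 7 and 4 of 7 genes, in the same order of comparisons, against 38.0%, 22.4% and 30.4% of all genes. The median log2 fold change of the 7 genes was -0.20, -0.52 and 0.37, beside -0.05, -0.0039 and -0.0044 over all genes tested. The first 2 comparisons share the SW480 libraries, and their values are set side by side without a test of likeness.

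**Figure D2:**
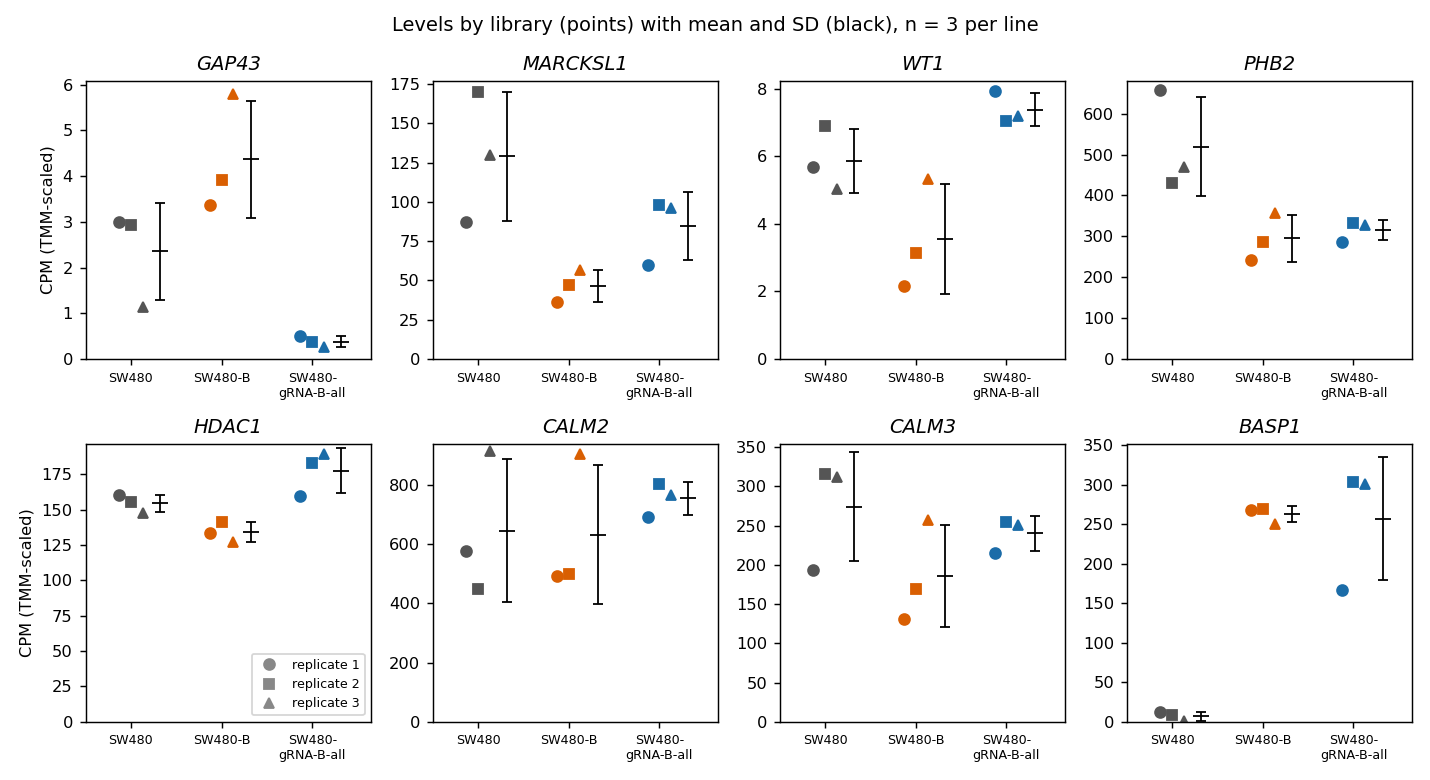
Level in CPM of the 7 genes and of BASP1 in each library, by line, with the mean and SD (n = 3) in black and the replicate number as the symbol. The GAP43 points of SW480-gRNA-B-all lie between 0.267 and 0.508 CPM, below all 6 other libraries, and the MARCKSL1 points of SW480-B lie between 36.2 and 56.4 CPM, below the other 6.

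**Figure D3:**
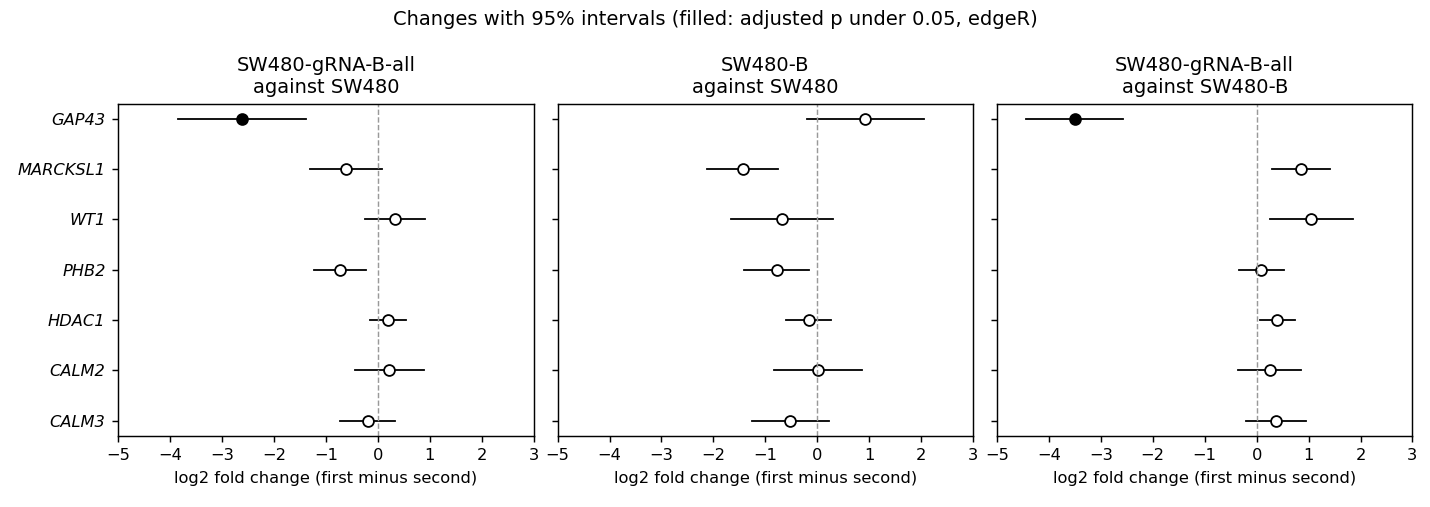
Log2 fold change of each gene in the 3 comparisons (points) with 95% intervals from edgeR (lines). The filled points, with an adjusted p under 0.05, are those of GAP43 where SW480-gRNA-B-all was set against the parental line (-2.62) and against SW480-B (-3.51).

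Among the relatives of BASP1, GAP43 was the gene that passed between the 2 BASP1-expressing lines. GAP43 (ENSG00000172020, chr3:115342357-115440337 of GRCh37, plus strand, 3 exons in its canonical transcript) codes for growth-associated protein 43 of axonal growth cones, which binds calmodulin and is a substrate of protein kinase C. It was low in every library, with 87, 85 and 31 counts in SW480, 87, 110 and 164 in SW480-B, and 15, 11 and 8 in SW480-gRNA-B-all. These were 3.00, 2.93 and 1.13 CPM in SW480, with a mean ± SD of 2.35 ± 1.06 (n = 3, as for all means given here), 3.37, 3.92 and 5.80 CPM in SW480-B (4.36 ± 1.27) and 0.508, 0.367 and 0.267 CPM in SW480-gRNA-B-all (0.381 ± 0.121). The 3 lines did not overlap, SW480-gRNA-B-all lying lowest and SW480-B highest.
From SW480-B to SW480-gRNA-B-all, the log2 fold change of GAP43 was -3.51 ± 0.41 (standard error), with an adjusted p of 0.0029 from edgeR. This is an 11.4-fold lower level, with a 95% interval of 5.97- to 21.6-fold. This is also the direct test that the departures of the 2 lines from SW480 differ. It passed in each of the 6 fits that left out 1 library, with log2 fold changes of -3.75 to -3.25 and adjusted p from 0.0068 to 0.019, and the direction was the same in all of them. With the 2 close SW480-gRNA-B-all libraries summed, it was -3.41 with an adjusted p of 0.018.
Against SW480, GAP43 had a log2 fold change in the SW480-gRNA-B-all line of -2.62 ± 0.52 (standard error), or 6.15-fold lower (95% interval 2.62- to 14.4-fold), with an adjusted p of 0.033 from edgeR. This call was less firm. It was kept in 1 of the 6 fits with a library left out, that without SW480 replicate 3. Without SW480 replicate 1 or 2 the adjusted p was 0.051 and 0.12, and without SW480-gRNA-B-all replicate 1, 2 or 3 it was 0.084, 0.14 and 0.14. With the 2 close SW480-gRNA-B-all libraries summed, the log2 fold change was -2.51 with an adjusted p of 0.13.
In SW480-B the log2 fold change of GAP43 from SW480 was 0.93 (standard error 0.49, adjusted p = 0.40, edgeR), with a 95% interval of -0.19 to 2.05, and the test did not pass.

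Since GAP43 is best known from neurons, its values are set beside 12 markers of cells other than epithelium. Their summed level was 48.7 to 199 CPM in SW480, 35.5 to 39.5 CPM in SW480-B and 12.2 to 16.6 CPM in SW480-gRNA-B-all. These sums followed 1 gene, SYT1, a synaptic vesicle calcium sensor, which was at 188, 93.5 and 41.0 CPM in SW480, 23.8, 24.7 and 29.7 CPM in SW480-B, and 3.93, 0.134 and 0.0668 CPM in SW480-gRNA-B-all. The other 11 markers together were at 7.64 to 11.7 CPM in SW480, 7.74 to 15.7 CPM in SW480-B and 12.1 to 13.7 CPM in SW480-gRNA-B-all. The SW480-B range overlapped both others, while the SW480-gRNA-B-all range lay above that of SW480. SYT1 was highest in SW480, and GAP43 in SW480-B.
Of those tested, 1 rose (COL1A1) and 2 fell (LUM and SYT1) out of 5 when SW480-gRNA-B-all was set against SW480. In SW480-B against SW480, 0 rose and 1 fell (LUM) out of 5. Between the BASP1-expressing lines, 0 rose and 2 fell (SYT1 and SNAP25) out of 4. All genes passed at 7.80%, 1.34% and 8.76% in these comparisons, and with so few markers tested the counts are no result about the set. The calls of COL1A1, LUM and SYT1 held in 1 or 2 of 6 fits with a library left out and that of SNAP25 in 4 of 6 (lost without SW480-B replicate 2 or SW480-gRNA-B-all replicate 2, adjusted p up to 0.061), and with the 2 close SW480-gRNA-B-all libraries summed 0 passed. SW480 replicate 2 and the SW480-gRNA-B-all replicates 2 and 3 were among the libraries whose removal ended the calls of COL1A1, LUM and SYT1 against SW480 (adjusted p up to 0.18). SNAP25, of the vesicle fusion machinery, was at 0.724, 1.55 and 0.946 CPM in SW480, at 3.56, 3.82 and 3.18 CPM in SW480-B, and at 0.407, 0.902 and 1.00 CPM in SW480-gRNA-B-all, the last overlapping SW480. The neuronal marker RBFOX3 and the collagen gene COL3A1 were at 0 in every library, and the leukocyte markers PTPRC and CD3E and the stromal markers DCN and LUM were at 0 in all of SW480-gRNA-B-all. Other markers lay higher there than in SW480. COL1A1 was at 7.90, 9.45 and 10.7 CPM against 3.52, 4.21 and 4.37 CPM in SW480. VWF was at 4.34, 1.67 and 1.97 CPM against 0.690, 0.897 and 0.873 CPM, and did not pass (adjusted p = 0.071, edgeR).
Calls were also made among the markers of colon epithelium. Of 7 tested, 2 fell in SW480-gRNA-B-all (CDX2 and VIL1) and 1 in SW480-B (VIL1), both against SW480. Between the BASP1-expressing lines 3 fell (CDX2, KRT19 and CDH1). Of all genes, 5.52%, 1.25% and 5.73% passed as lower in these comparisons, and with 7 markers tested the counts are no result about the set. CDX2, an intestinal transcription factor, was at 30.4, 30.7 and 41.9 CPM in SW480, 58.7, 67.4 and 58.3 CPM in SW480-B and 5.53, 2.71 and 2.37 CPM in SW480-gRNA-B-all. Between the BASP1-expressing lines the CDX2 level changed by -4.12 on the log2 scale (adjusted p = 0.00099, edgeR), which held in 6 of 6 fits with a library left out and with the close libraries summed (adjusted p = 0.0053). Like GAP43, CDX2 lay highest in SW480-B and lowest in SW480-gRNA-B-all. VIL1, of the brush border, was at 344, 308 and 98.8 CPM in SW480, 29.7, 36.0 and 30.3 CPM in SW480-B and 21.5, 6.81 and 6.35 CPM in SW480-gRNA-B-all. The SW480-gRNA-B-all calls against SW480 were lost without SW480 replicate 2 or SW480-gRNA-B-all replicate 2 or 3 (adjusted p up to 0.055 for CDX2 and 0.086 for VIL1), and that of VIL1 in SW480-B without SW480 replicate 2 or any SW480-B library (up to 0.22). KRT19 was lost without SW480-B replicate 2 or SW480-gRNA-B-all replicate 2 or 3 (up to 0.14).
The part of other cell types, or of a changed state of the epithelium, in the GAP43 values was not tested, and in bulk RNA fewer cells with a transcript and less of it per cell cannot be told apart.

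MARCKSL1 (ENSG00000175130, chr1:32799440-32801834 of GRCh37, minus strand, 2 exons) codes for the MARCKS-like protein that binds actin, calmodulin and membrane lipids. It stood at 87.5, 170 and 130 CPM in SW480 (129 ± 41.1), at 36.2, 47.2 and 56.4 CPM in SW480-B (46.6 ± 10.1) and at 59.9, 97.8 and 96.3 CPM in SW480-gRNA-B-all (84.7 ± 21.5). SW480-B lay below both other lines without overlap, and SW480-gRNA-B-all overlapped SW480.
In SW480-B against SW480 the log2 fold change was estimated at -1.43 (standard error 0.30, adjusted p = 0.068, edgeR), with a 95% interval of -2.12 to -0.75. The test did not pass over all libraries. Same-numbered libraries of these 2 lines deviated together. When the replicate number was added as a block, MARCKSL1 fell by 1.41 on the log2 scale (adjusted p = 0.026, edgeR), where 1.99% of all genes passed. It also passed without SW480 replicate 1 (adjusted p = 0.027) and without SW480 replicate 3 (adjusted p = 0.043), and by DESeq2 (-1.45, adjusted p = 0.0024). It did not pass without SW480 replicate 2 (adjusted p = 0.21, edgeR). Nor did it pass without SW480-B replicate 1, 2 or 3 (adjusted p = 0.29, 0.25 and 0.11, edgeR), so that the call depended on single libraries.
Between SW480-gRNA-B-all and SW480-B the log2 fold change was estimated at 0.86 (standard error 0.24, adjusted p = 0.067, edgeR), which passed without SW480-B replicate 3 (adjusted p = 0.048) and without SW480-gRNA-B-all replicate 1 (adjusted p = 0.029). It passed without a filter on low counts (adjusted p = 0.013, edgeR) and by DESeq2 (adjusted p = 0.0225), and with the close libraries summed it did not (0.77, adjusted p = 0.23). It also did not pass without SW480-B replicate 1 or 2 or SW480-gRNA-B-all replicate 2 or 3 (adjusted p up to 0.23, edgeR). In 1 fit of all 9 libraries the adjusted p was 0.13. The direction was positive in all of these fits. Against SW480 the log2 fold change of SW480-gRNA-B-all was -0.62 (adjusted p = 0.22, edgeR), with a 95% interval of -1.31 to 0.08. GAP43 and MARCKSL1 were thus ordered differently over the lines, GAP43 being highest in SW480-B and MARCKSL1 lowest there.

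**Figure D4:**
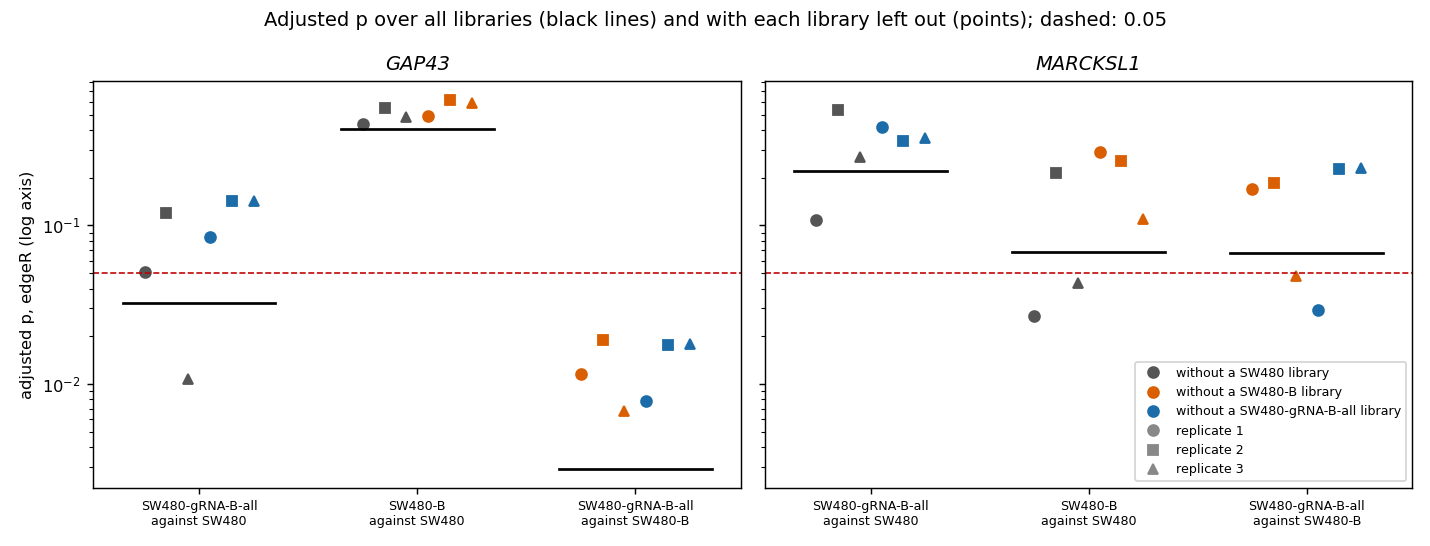
Adjusted p from edgeR (log axis) of GAP43 and MARCKSL1 in the 3 comparisons, over all libraries (black lines) and with each library left out in turn (points coloured by the line of the library left out, the symbol giving its replicate number), with 0.05 dashed. For GAP43 in SW480-gRNA-B-all against SW480-B all 6 points lie under the dashed line, and for MARCKSL1 the points lie on both sides of it in 2 comparisons.

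MARCKSL1 and HDAC1 are neighbours on chromosome 1 and are transcribed toward each other, with their ends 203 bases apart. HDAC1 (ENSG00000116478, chr1:32757684-32799236 of GRCh37, plus strand, 14 exons) codes for a class I histone deacetylase of several corepressor complexes. Its level was the steadiest of the 7 genes within SW480 and SW480-B, at 160, 155 and 148 CPM in SW480 (154 ± 6.20), 134, 142 and 127 CPM in SW480-B (134 ± 7.19) and 160, 183 and 190 CPM in SW480-gRNA-B-all (177 ± 15.8). SW480-B lay lowest, without overlap with either other line.
The log2 fold change was -0.17 in SW480-B (adjusted p = 0.71, edgeR) and 0.19 in SW480-gRNA-B-all (adjusted p = 0.40), both against SW480. The 95% intervals, -0.60 to 0.26 and -0.15 to 0.53, leave out a change of 2-fold. Between the BASP1-expressing lines it was 0.40 (standard error 0.15, adjusted p = 0.15, edgeR), and the test did not pass. As a share of the HDAC1 level in CPM, which is not adjusted for length, MARCKSL1 was 54.7% to 109% in the SW480 libraries. It was 27.0% to 44.3% in SW480-B and 37.5% to 53.4% in SW480-gRNA-B-all. These shares did not overlap between SW480 and either BASP1-expressing line.
Of the 12 tested genes within 100 kb of HDAC1, 0 passed against SW480 in either line, at edgeR's adjusted p under 0.05. Of all genes, 7.80% passed for SW480-gRNA-B-all and 1.34% for SW480-B. CCDC28B passed between SW480-gRNA-B-all and SW480-B (log2 fold change 1.22, adjusted p = 0.040, edgeR). It lost the call without SW480-B replicate 1 or 2 or SW480-gRNA-B-all replicate 2 or 3 (adjusted p up to 0.19), and with the close libraries summed (0.18).

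WT1 (ENSG00000184937, chr11:32409321-32457110 of GRCh37, minus strand, 10 exons in its canonical transcript) codes for the zinc finger factor that BASP1 is known to bind. Its splice forms are not told apart by counts per gene. WT1 was measured at 165, 200 and 138 counts in SW480, 56, 88 and 151 in SW480-B and 234, 211 and 215 in SW480-gRNA-B-all. These were 5.69, 6.90 and 5.02 CPM in SW480 (5.87 ± 0.951), 2.17, 3.14 and 5.34 CPM in SW480-B (3.55 ± 1.63) and 7.93, 7.05 and 7.18 CPM in SW480-gRNA-B-all (7.39 ± 0.476). SW480-gRNA-B-all lay above both other lines, and SW480-B replicate 3 reached into the range of SW480.
The log2 fold change against SW480 was 0.33 (adjusted p = 0.41, edgeR) for SW480-gRNA-B-all and -0.69 (adjusted p = 0.48) for SW480-B, neither passing. Between the BASP1-expressing lines it was 1.05 (standard error 0.35, adjusted p = 0.10, edgeR), with a 95% interval of 0.26 to 1.85. Without SW480-B replicate 3 it was 1.48 and passed (adjusted p = 0.022), and DESeq2 gave an adjusted p of 0.029. That was 1 of 6 fits with a library left out, and the others did not pass (adjusted p up to 0.27, edgeR). With the close libraries summed it was 1.09 and did not pass (adjusted p = 0.26, edgeR). WT1-AS, the antisense gene that overlaps the start of WT1, had 6 to 55 counts per library, and since the strand setting of the counting is not given in the sources used here, reads of the pair may not be fully separated.

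PHB2 (ENSG00000215021, chr12:7074490-7079943 of GRCh37, minus strand, 10 exons) stood at 659, 431 and 470 CPM in SW480 (519.7 ± 122), at 242, 287 and 357 CPM in SW480-B (295 ± 58.1) and at 286, 333 and 328 CPM in SW480-gRNA-B-all (315 ± 25.4). All 6 libraries of the BASP1-expressing lines lay below all 3 of SW480. The log2 fold changes from SW480 were close in size, -0.78 in SW480-B (standard error 0.27, adjusted p = 0.23, edgeR) and -0.73 (standard error 0.21, adjusted p = 0.081) in SW480-gRNA-B-all. Neither passed, with 95% intervals of -1.40 to -0.15 and -1.23 to -0.22, and DESeq2 gave an adjusted p of 0.039 for SW480-gRNA-B-all. Between the 2 BASP1-expressing lines the log2 fold change was 0.09 with a 95% interval of -0.34 to 0.53. ENO2, the neuronal enolase gene, was 1 of 15 tested genes within 100 kb of PHB2 and the one that passed, in SW480-gRNA-B-all against SW480-B. There 8.76% of all genes passed, and the ENO2 log2 fold change was 1.07 (adjusted p = 0.020, edgeR). That call was lost without SW480-B replicate 1 or 2 or SW480-gRNA-B-all replicate 2 or 3 (adjusted p up to 0.091), and with the close libraries summed (0.090).
Of 14 other genes of the WT1 and BASP1 complexes, among them prohibitin, further histone deacetylases and the coactivators CREBBP and EP300, 14 were tested and 0 passed by edgeR in any of the 3 comparisons. Of all genes, 7.80% (SW480-gRNA-B-all against SW480), 1.34% (SW480-B against SW480) and 8.76% (SW480-gRNA-B-all against SW480-B) passed. With 14 genes tested, the count of 0 is no result about the set. Their median log2 fold change was -0.07 and -0.08 in SW480-gRNA-B-all and SW480-B, each against SW480, and 0.14 between those lines. Over all genes tested the medians were -0.05, -0.0039 and -0.0044 in that order.

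Among 18 genes known as WT1 targets, 1 rose and 1 fell out of 17 tested when SW480-gRNA-B-all was set against SW480, 0 of 16 passed in SW480-B against SW480, and 1 rose and 1 fell out of 15 between the 2 BASP1-expressing lines (SW480-gRNA-B-all against SW480-B). These are 11.8% and 13.3% of the targets tested in the comparisons with calls, beside 7.80% and 8.76% of all genes. In SW480-B against SW480, 1.34% of all genes passed. Shares so close to the background are no result about WT1 targets. CSF1, the macrophage growth factor gene, was at 1.00, 1.10 and 1.42 CPM in SW480, 1.51, 1.75 and 1.27 CPM in SW480-B and 6.47, 5.44 and 5.65 CPM in SW480-gRNA-B-all. It rose by 2.31 on the log2 scale against SW480 (adjusted p = 0.013, edgeR) and by 1.95 against SW480-B (adjusted p = 0.0063), and the latter call was kept in 6 of 6 fits with a library left out.
BCL2, which protects from apoptosis, fell by 2.43 from SW480 (adjusted p = 0.025, edgeR). CDH1, the gene of E-cadherin, fell by 0.89 from SW480-B to SW480-gRNA-B-all (adjusted p = 0.020). The calls of CSF1 and BCL2 against SW480 were lost without SW480 replicate 2 or any of the 3 SW480-gRNA-B-all libraries (adjusted p up to 0.078 and 0.11). That of CDH1 was lost without SW480-B replicate 1 or 2 or SW480-gRNA-B-all replicate 2 or 3 (adjusted p up to 0.11). With the 2 close SW480-gRNA-B-all libraries summed, 0 targets passed against SW480 and 1 against SW480-B, which was CSF1 (adjusted p = 0.033).

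CALM2 (ENSG00000143933, chr2:47387223-47404060 of GRCh37, minus strand) and CALM3 (ENSG00000160014, chr19:47104331-47114039, plus strand), with 6 exons each in their canonical transcripts, code for the same calmodulin protein. CALM2 was at 577, 449 and 914 CPM in SW480 (647 ± 240.5), at 494, 499 and 904 CPM in SW480-B (632 ± 235) and at 694, 804 and 768 CPM in SW480-gRNA-B-all (755 ± 56.2). Replicate 3 was the high library in both SW480 and SW480-B, and the 3 lines overlapped. The CALM2 log2 fold change against SW480 was 0.01 in SW480-B (95% interval -0.84 to 0.86), a value whose sign changed with the processing, and 0.22 in SW480-gRNA-B-all (95% interval -0.45 to 0.89).
CALM3 was at 194, 316 and 312 CPM in SW480 (274 ± 69.3), at 131, 169 and 257 CPM in SW480-B (186 ± 64.7) and at 215, 255 and 251 CPM in SW480-gRNA-B-all (240.2 ± 22.0). These lines overlapped too. Its log2 fold change against SW480 was -0.52 in SW480-B (adjusted p = 0.47, edgeR) and -0.20 in SW480-gRNA-B-all (adjusted p = 0.59), and between the BASP1-expressing lines it was 0.37 (adjusted p = 0.40).
Of the summed counts of both genes, which are not adjusted for length, CALM3 held 20.9% to 25.2% in SW480-B and 23.6% to 24.6% in SW480-gRNA-B-all. In SW480 it held 25.1%, 41.3% and 25.4%, replicate 2 standing apart from the other 8 libraries. Annotated pseudogenes of the members held at most 0.107% of the member's own counts in a library, the largest share being that of MARCKSL1.

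Among small proteins of the calmodulin-like and IQ-motif type, calls were made in every comparison. Of 8 such genes, 1 rose and 2 fell out of 7 tested when SW480-gRNA-B-all was set against SW480. In SW480-B against SW480, 0 rose and 2 fell out of 5. Between the 2 BASP1-expressing lines (SW480-gRNA-B-all against SW480-B), 1 rose and 0 fell out of 4. All genes passed at 7.80%, 1.34% and 8.76% in these comparisons. With so few genes tested, from a list chosen with earlier results known, the counts are no result about the group. PCP4, a small IQ-motif protein that binds calmodulin as GAP43 does, had 117, 129 and 79 counts in SW480, 1 count in each SW480-B library and 0 in each SW480-gRNA-B-all library. PCP4 was thus at least 113-fold lower in the latter line than in the parental cells, taking 3 counts over the line as the limit (adjusted p = 0.0080, edgeR). In SW480-B it was 104-fold lower, with a 95% counting interval of 35.3- to 508-fold (adjusted p = 0.0089).
CALML3, a calmodulin-like protein of epithelia, had 70, 60 and 44 counts in SW480 and 0 in all 6 other libraries. By the same limit it was at least 60.6-fold lower (adjusted p = 0.0094, edgeR) in SW480-gRNA-B-all and at least 55.8-fold lower (adjusted p = 0.016) in SW480-B.
PCP4L1, a relative of PCP4, moved the other way in SW480-gRNA-B-all. It had 4, 6 and 4 counts in SW480, 1, 0 and 1 in SW480-B and 31, 20 and 28 in SW480-gRNA-B-all, and rose by 2.40 on the log2 scale against SW480 (adjusted p = 0.024, edgeR). Against SW480-B it rose by 4.95 (adjusted p = 0.0050), a call kept in 6 of 6 fits with a library left out.
The calls against SW480 depended on single libraries. In SW480-gRNA-B-all, those of PCP4 and CALML3 were lost without SW480 replicate 2 (adjusted p = 0.062 and 0.072), and that of PCP4L1 without SW480 replicate 2 or any SW480-gRNA-B-all library (up to 0.12). In SW480-B, PCP4 lost the call without SW480-B replicate 1 or 2, and CALML3 without SW480 replicate 2 or any SW480-B library (both up to 0.13), although the counts themselves did not overlap. With the 2 close SW480-gRNA-B-all libraries summed, 0 rose and 2 fell against SW480 and 1 rose against SW480-B.

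**Figure D5:**
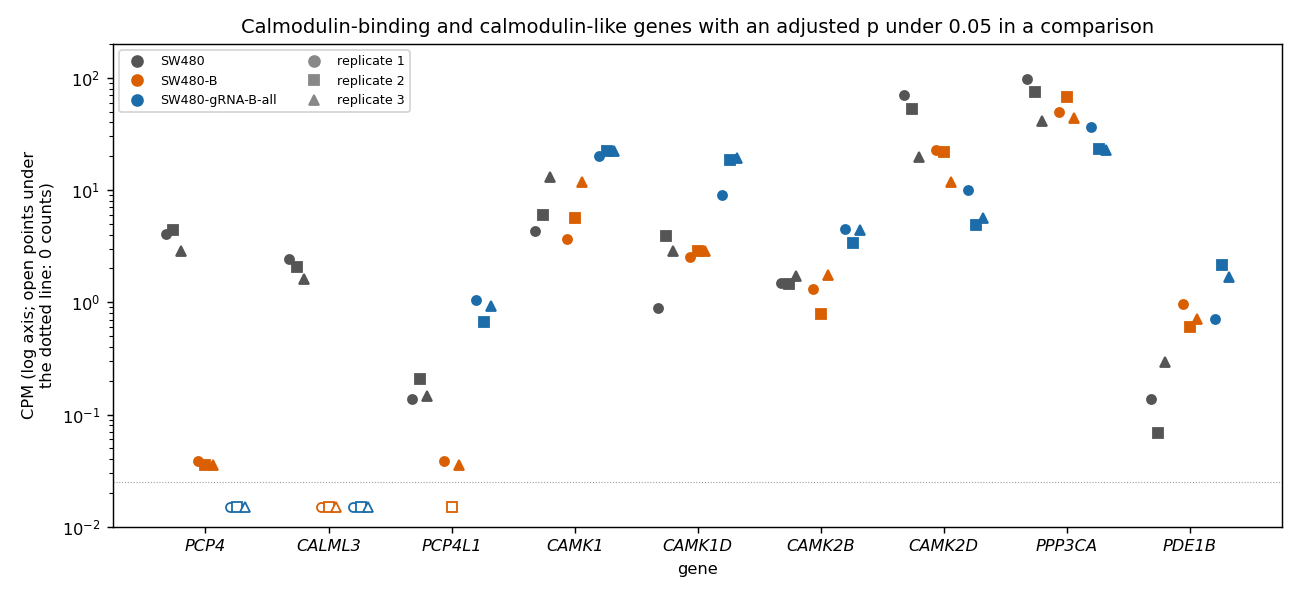
Level in CPM (log axis) of the calmodulin-like and calmodulin-binding genes that passed in a comparison, in the 9 libraries, coloured by line, with open points under the dotted line for 0 counts. PCP4 and CALML3 were between 1.60 and 4.45 CPM in SW480 and at 1 count or 0 elsewhere, while CAMK1, CAMK1D and CAMK2B lie highest in SW480-gRNA-B-all.

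Among 24 enzymes and proteins that calmodulin acts on, 3 rose and 1 fell out of 19 tested when SW480-gRNA-B-all was set against SW480. In SW480-B against SW480, 0 of 17 passed. Between the 2 BASP1-expressing lines (SW480-gRNA-B-all against SW480-B), 3 rose and 2 fell out of 17. These are 21.1%, 0% and 29.4% of the effectors tested, beside 7.80%, 1.34% and 8.76% of all genes. The list was chosen with earlier results known, and the shares were not tested as a result about calmodulin effectors. CAMK1D, a calcium/calmodulin-dependent kinase, was at 0.896, 3.93 and 2.84 CPM in SW480, 2.51, 2.85 and 2.86 CPM in SW480-B and 9.08, 18.7 and 19.2 CPM in SW480-gRNA-B-all. It rose by 2.61 on the log2 scale against SW480 (adjusted p = 0.041, edgeR) and by 2.51 against SW480-B (adjusted p = 0.0043), the latter kept in 6 of 6 fits with a library left out.
CAMK2D, a subunit of the calmodulin-dependent kinase II, went down where CAMK2B went up. CAMK2D was at 70.7, 52.7 and 19.7 CPM in SW480, 22.8, 21.8 and 11.8 CPM in SW480-B and 9.93, 4.84 and 5.61 CPM in SW480-gRNA-B-all, and the log2 fold changes of this line were -2.82 from SW480 and -1.47 from SW480-B (adjusted p = 0.028 and 0.039, edgeR). CAMK2B rose by 1.40 against SW480 and by 1.67 against SW480-B (adjusted p = 0.040 and 0.029). PDE1B, a calmodulin-activated phosphodiesterase, rose by 3.15 against SW480 (adjusted p = 0.036).
Against SW480-B, CAMK1 rose by 1.61 (adjusted p = 0.038, edgeR) and PPP3CA, the catalytic subunit of calcineurin, fell by 0.96 (adjusted p = 0.047).
Against SW480, the calls of CAMK1D, CAMK2B and CAMK2D were lost without SW480 replicate 2 or any SW480-gRNA-B-all library, and that of PDE1B also without SW480 replicate 1 (adjusted p up to 0.18). Against SW480-B, those of CAMK1, CAMK2B, CAMK2D and PPP3CA were lost without SW480-B replicate 1 or 2 or SW480-gRNA-B-all replicate 2 or 3, and those of CAMK1 and CAMK2B also without SW480-gRNA-B-all replicate 1 (up to 0.20). With the 2 close SW480-gRNA-B-all libraries summed, 0 effectors passed against SW480, and 2 rose and 0 fell against SW480-B. These were CAMK1D (adjusted p = 0.021) and DAPK1, a death-associated kinase that had not passed the filter over all libraries and is named here after its values were seen, so that 1 of the 5 calls against SW480-B held.

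For the lipid side of the family, 17 of 19 genes for protein kinase C forms, phosphatidylinositol phosphate kinases, N-myristoyltransferases and methionine aminopeptidases were tested. Against SW480, 0 passed in either line by edgeR, with a median log2 fold change of 0.37 for SW480-gRNA-B-all and of 0.22 for SW480-B. Of all genes, 7.80% and 1.34% passed in these comparisons, with medians of -0.05 and -0.0039. With 17 genes tested, the count of 0 is no result about the set. Between the BASP1-expressing lines, NMT2, which adds the fatty acid myristate to proteins of the BASP1 and MARCKS type, fell by 0.88 on the log2 scale (adjusted p = 0.011, edgeR), from 77.4, 83.0 and 69.2 CPM in SW480-B to 43.9, 40.4 and 40.2 CPM in SW480-gRNA-B-all. The NMT2 call was lost without SW480-gRNA-B-all replicate 2 or 3 (adjusted p up to 0.083) and with these replicates summed (0.080).

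The genes whose log2 level followed each member most closely over the 9 libraries were sought among 13742 genes with a mean of at least 1 CPM, and the points share the 3 lines and the library preparation. GAP43 was followed by C2orf88 (Pearson r = 0.972) and KLHL8 (0.969), and MARCKSL1 by NSD2 (0.962) and ALDH5A1 (0.958). WT1 was followed by LRWD1 (0.972) and TMEM179B (0.963), PHB2 by SCCPDH (0.983) and H3P6 (0.980), and HDAC1 by TMEM8B (0.969) and RNF157-AS1 (0.964). CALM2 was followed by RPP30 (0.990) and MRPL18 (0.982), and CALM3 by CCNI2 (0.992) and CSE1L (0.978). No gene of the set was among the closest genes of another, and with so many genes searched over 9 points high values are found for any profile.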

How the data were processed

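RNA of 3 lines, 3 libraries each, was sequenced by the authors (stranded TruSeq, poly(A), NovaSeq). The authors used GRCh37 as reference and deposited, for each library, raw counts per Ensembl gene without normalization. The counting program, its strand setting and versions are not given in the sources used here. The 5 lines naming no gene (no gene, 5.22% to 9.93%, and more than 1 gene, 3.09% to 3.44%, of a library) were left out. Alignment metrics were not used. Of 63677 identifiers, 55665 were matched to symbols (GENCODE 44 on GRCh37 and the symbol tables), holding 99.4% of counts.

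Each pair of lines was fitted over its 6 libraries with edgeR 4.0.16 in R 4.3.3 (filterByExpr with least count 10 and least total 15, TMM, robust quasi-likelihood test, Benjamini-Hochberg), tested on simulated data first. Standard errors and 95% intervals are from the same fit. CPM use TMM over all 9 libraries. Likeness used log2(CPM + 0.5). Promoters are from RefSeq, and 6 of 7 genes had one. Members and lists were chosen with earlier results of these data known. The genes named are the members, BASP1, up to 4 passing genes per list, comparison and direction, passing genes within 100 kb, and the 2 most alike genes. A list gene chosen by this rule is not reported here. Alternatives were RLE factors, no filter, 1 CPM in 3 libraries, all 9 libraries in 1 fit, a replicate block, left-out and summed libraries, DESeq2 1.42.0 and a 2-fold minimum. Deviations of same-numbered libraries from their line's mean correlated at 0.305, 0.404 and 0.397 between the SW480-B and parental libraries, each over the limit of 0.1, so that the numbers pair these libraries by the data, while the labels do not say what a number marks.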

Additional observations from a re-analysis of the deposited data

Results flagged for a closer look

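GAP43 differed from SW480 unequally in the 2 BASP1-expressing lines, and the direct test of that difference, SW480-gRNA-B-all against SW480-B, gave a log2 fold change of -3.51 (adjusted p = 0.0029, edgeR). All 3 SW480-gRNA-B-all libraries lay below, and all 3 SW480-B libraries above, those of SW480, and SW480-B against SW480 alone did not pass (0.93, adjusted p = 0.40).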

How the results depend on the processing

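Of the alternatives to the log2 fold changes of the 7 genes and BASP1, 263 kept direction and side of the threshold, 14 came to pass, 17 ceased to pass and 10 changed sign. The cause of the changes was not tested. For CALM2 in SW480-B against SW480 the value was -0.0085 with RLE factors, -0.019 without a filter, -0.0074 with the 1 CPM filter, -0.032 in 1 fit of 9 libraries, -0.0013 by DESeq2, and -0.36 to 0.34 with a library left out. BASP1 between its 2 expressing lines ranged from -0.15 to 0.22, and PHB2 there from -0.030 to 0.25. The genes passing over all libraries were 1256 (SW480-gRNA-B-all against SW480), 216 (SW480-B against SW480) and 1388 (SW480-gRNA-B-all against SW480-B), in which order they became 1930, 488 and 761 in 1 fit of 9 libraries and 3125, 1133 and 2306 by DESeq2. For SW480-B against SW480 there were 738 without a filter and 143 with the 1 CPM filter, and with the 2 close SW480-gRNA-B-all libraries (replicates 2 and 3) summed the other 2 counts were 97 and 447. With a library left out the ranges were 8 to 3519, 0 to 925 and 421 to 2305. The lowest were without SW480 replicate 2, without SW480-B replicate 1 or 2, and without SW480-gRNA-B-all replicate 3, and the highest without SW480 replicate 3 (the first 2 comparisons) or SW480-B replicate 3. Members passing became 0 in the first comparison with those libraries summed. By DESeq2 they were 2, 1 and 3, where 3125 of 19974, 1133 of 20101 and 2306 of 18743 genes passed. Without a filter they were 1 in SW480-B against SW480 (738 of 30000 genes), as in 1 fit of 9 libraries (488 of 16680). Between the BASP1-expressing lines they were 2 without a filter (1895 of 28815 genes). With a library left out they were 0 to 1, 0 to 1 and 1 to 3.

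With the replicate number as a block, 1 member passed in SW480-B against SW480 (MARCKSL1), where 1.99% of all genes passed. In SW480-gRNA-B-all against SW480-B there were 2 (GAP43 and MARCKSL1, the latter 0.85, adjusted p = 0.014, edgeR), where 1978 of 15846 genes passed. The block changed no other member's call. In the comparisons with SW480-gRNA-B-all the same-numbered libraries correlated at 0.312, -0.013 and 0.293 with SW480 and at 0.267, -0.099 and 0.285 with SW480-B. In each, 3 of 6 libraries did so best with their own number, so that these numbers do not pair the libraries. The block call of MARCKSL1 between the BASP1-expressing lines is therefore given no weight. GAP43, with 8 to 164 counts per library, and WT1, with 56 to 234, are limited by depth.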
